A study of Homo sapiens with 2 samples.

Results

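CXCL-high tumour cells were the UMUC3 cells in which transcripts of the chemokine genes CXCL1, CXCL2, CXCL3 and CXCL8 together made up at least 0.1% of the unique molecular identifiers (UMIs) of the cell. They numbered 465 of 7057 cells (6.59%), 345 of 2672 in the GANAB knockdown library and 120 of 4385 in the control library. Cells were barcodes with at least 15000 UMIs and at most 20% mitochondrially encoded UMIs. Within each library the CXCL-high cells were set against cells with under 2 UMIs of the 4 genes together, called low cells here, of which there were 1129 in the knockdown and 2341 in the control library.

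UMUC3 is a human bladder carcinoma line. The knockdown library came from UMUC3 cells with reduced GANAB, the catalytic alpha subunit of the glucosidase II of the endoplasmic reticulum (ER), and the control library from UMUC3 cells with the genotype label control. Cells of both genotypes had grown for 14 days after orthotopic transplantation into the bladder of C57 nude mice, which lack T cells but keep neutrophils, macrophages and NK cells, and 10000 sorted cells per channel were loaded for 10x Genomics Chromium 3′ v3 sequencing. The labels give neither the number of mice per library nor whether animals were pooled, nor how GANAB was lowered.

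The 4 genes encode small secreted chemokines of the ELR-positive CXC class, which bind CXCR2 (CXCL8 also CXCR1) on neutrophils and draw them into tissue. In epithelial and tumour cells they are known as inducible genes: NF-kB, activated downstream of IL-1, TNF and Toll-like receptors, drives their transcription together with AP-1, and AU-rich elements make their messenger RNAs short-lived. NF-kB also induces its own inhibitors, so that in a responding cell NFKBIA and TNFAIP3 are made along with the chemokines.

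With 1 library per genotype, and with cells that are not replicates of a genotype, no test was possible. Intervals are exact, at 95%, and hold for counting error alone. A gene was called higher or lower in these cells where its level differed by 1.5-fold or more, its interval left out a ratio of 1, and it reached 10 CPM in either group. A gene that reached 10 CPM in CXCL-high cells alone could only be called higher, and one that reached it in low cells alone only lower. CPM is the UMIs of a gene per 1000000 UMIs, summed over all cells of a group.

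The knockdown library held 155064055 UMIs and the control library 239857346, of which 132709954 and 214188781 lay in the cells, with medians of 40933 and 44046 UMIs per cell. GANAB stood at 42.3 CPM in knockdown cells (41.2 to 43.4) and at 127 CPM in control cells (125 to 128), in the direction of the labels. Of the cell barcodes, 4 occurred in both libraries, where 1.72 would be shared by lists of these sizes, and 2 of the 4 were CXCL-high in the knockdown library and 0 in the control library. Doublets were not removed with a caller. All 12 markers of UMUC3 cells, among them VIM, KRT8, KRT18 and EGFR, reached 10 CPM in the CXCL-high or low cells of both libraries, summing to 30346 CPM in CXCL-high and 28548 CPM in low knockdown cells and to 23360.4 CPM in CXCL-high and 23828 CPM in low control cells.

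The 4 genes lie in 1 cluster on the long arm of chromosome 4. In the GENCODE release 29 annotation of GRCh38 they span chr4:73740506-74099293, about 359 kb, in the order CXCL8 (forward strand), CXCL1 (forward), CXCL3 (reverse) and CXCL2 (reverse). CXCL1, CXCL2 and CXCL3 are recent copies of each other. In the annotated transcripts 5.73% of the 50-base windows of CXCL1, 9.24% of those of CXCL2 and 5.26% of those of CXCL3 occur in another of the genes, and 0% of those of CXCL8. Near the 3′ end of the transcripts, which this assay reads, the shared part is 18.3% for CXCL1, 18.3% for CXCL2, 0% for CXCL3 and 0% for CXCL8, so that the values of CXCL1 and CXCL2 are the less certain ones.

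The 120 bases before the RefSeq start of each gene are shown because all hold the same 9 letters, GGAATTTCC, a match to the NF-kB binding motif, given in capitals. Sequences are from RefSeq on GRCh38.p14, written 5′ to 3′ on the strand of the gene; the RefSeq start of CXCL8, CXCL3 and CXCL2 differs from that of GENCODE release 29.
CXCL8, chr4:73740449-73740568, forward strand: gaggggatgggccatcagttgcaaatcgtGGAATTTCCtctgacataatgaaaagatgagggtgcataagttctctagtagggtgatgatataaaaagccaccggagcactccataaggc
CXCL1, chr4:73869273-73869392, forward strand: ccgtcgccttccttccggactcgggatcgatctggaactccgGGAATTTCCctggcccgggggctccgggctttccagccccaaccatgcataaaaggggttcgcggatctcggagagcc
CXCL3, chr4:74038690-74038809, reverse strand: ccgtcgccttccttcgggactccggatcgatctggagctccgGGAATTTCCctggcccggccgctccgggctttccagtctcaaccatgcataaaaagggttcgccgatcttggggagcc
CXCL2, chr4:74099196-74099315, reverse strand: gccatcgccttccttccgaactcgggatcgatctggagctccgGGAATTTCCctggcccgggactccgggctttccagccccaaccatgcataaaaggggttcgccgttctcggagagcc
The motif begins 91 bases before the start in CXCL8, 78 bases before it in CXCL1 and CXCL3, and 77 bases before it in CXCL2. Searched on both strands in the 250 bases before the start, these letters occur in 4 of these 4 promoters, in 117 of the 27305 promoters of all genes (0.428%) and in 19 of the 5852 matched promoters of genes measured here (0.325%). The letters TGACTCA, a match to the AP-1 motif, occur in CXCL8 alone of the 4 and in 1136 of all promoters (4.16%). A match of letters is a description of the sequence and does not show that a factor binds there.

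CXCL-high cells made up 12.9% of the knockdown cells (11.7 to 14.2) and 2.74% of the control cells (2.27 to 3.26), a ratio of shares of 4.72. The shares were close to these when each cell was thinned to 15000 UMIs, at 12.9% of knockdown cells (346) and 2.92% of control cells (128), a ratio of 4.44. Because the 4 genes chose the cells, the following levels describe the choice and support nothing. The share of the 4 genes among the UMIs of a CXCL-high cell had a median of 0.160% and a highest value of 2.88% in the knockdown library, and a median of 0.147% and a highest value of 0.787% in the control library. Near the threshold lay 41 knockdown and 21 control cells just inside, between 0.1% and 0.11%, and 30 knockdown and 19 control cells just outside, between 0.09% and 0.1%. The CXCL-high cells carried 64.4% of all UMIs of the 4 genes in the knockdown cells and 29.2% of those in the control cells.

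**Figure D1:**
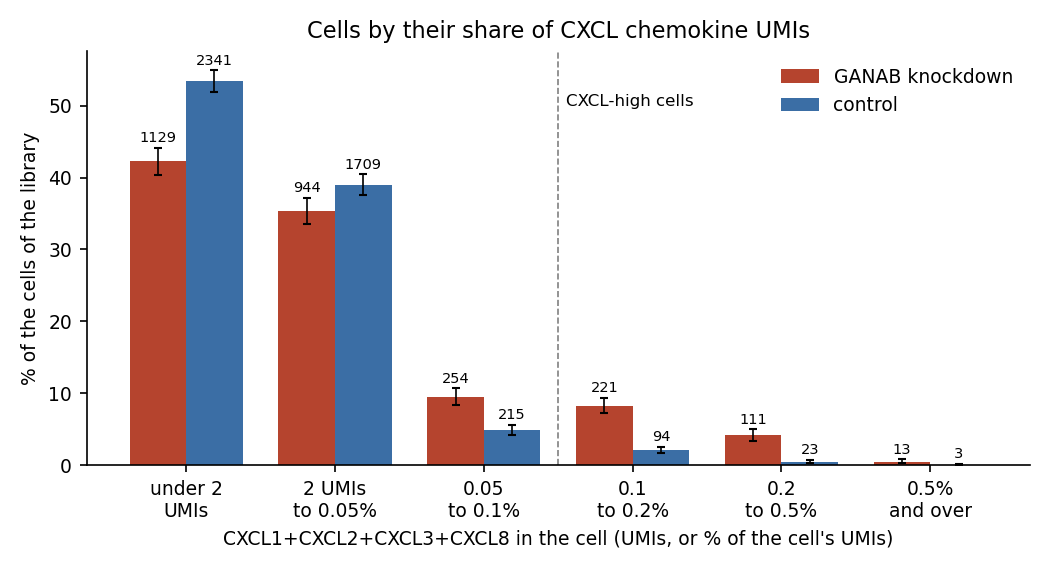
Share of the cells of each library (y axis, %) by the share of CXCL1, CXCL2, CXCL3 and CXCL8 among the UMIs of the cell (x axis); bars give the GANAB knockdown library (red, left) and the control library (blue, right), numbers above bars count cells and error bars are exact 95% binomial intervals. Cells right of the dashed line are CXCL-high: 221, 111 and 13 knockdown cells and 94, 23 and 3 control cells.

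CXCL3 was counted at 670.2 CPM in CXCL-high knockdown cells and 558 CPM in CXCL-high control cells, CXCL2 at 521 and 355 CPM, CXCL1 at 484 and 338 CPM, and CXCL8 at 398 and 503 CPM, so that CXCL8 alone of the 4 had its higher value in the control library. In low cells the 4 genes stood between 0.66 and 2.46 CPM in the knockdown and between 0.667 and 2.92 CPM in the control library, which the choice fixed. CXCL3 had a UMI in 97.1% of CXCL-high knockdown cells and 87.5% of CXCL-high control cells. CXCL8 had one in fewer, 65.2% of CXCL-high knockdown cells and 67.5% of CXCL-high control cells. All 4 genes were detected together in 201 CXCL-high knockdown cells (58.3%) and 51 CXCL-high control cells (42.5%). Most CXCL-high cells thus held several of the chemokines, and 2 knockdown cells and 1 control cell held a single one. Barcodes of 1 to 100 UMIs hold free RNA. They had the 4 genes at 394 CPM in the knockdown and 223 CPM in the control library. That these values lie between low and CXCL-high cells follows from the choice. In control free RNA CXCL1, CXCL2, CXCL3 and CXCL8 stood at 41.7, 58.1, 56.5 and 66.8 CPM. Over all control cells they stood lower, at 31.5, 38.6, 52.6 and 29.9 CPM. Knockdown free RNA had 100, 121, 100 and 72.1 CPM, below the 107, 133, 141 and 74.3 CPM of all knockdown cells. The part of free RNA in the counts of cells was not tested.

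To read each chemokine without its own part in the choice, cells were chosen again by the other 3 genes, at 0.1% against under 2 UMIs, and the gene left out was read. Each of the 4 was higher in the chosen cells of both libraries. CXCL1 stood at 473 CPM in 242 chosen against 18.3 CPM in 1291 low knockdown cells (25.8-fold), and at 209 CPM in 84 chosen against 10.8 CPM in 2586 low control cells (19.4-fold). CXCL2 stood at 520.3 against 19.4 CPM in knockdown cells (26.8-fold) and at 242 against 16.7 CPM in control cells (14.5-fold). CXCL3 gave 697 against 14.6 CPM in knockdown cells (47.8-fold) and 451 against 18.2 CPM in control cells (24.8-fold). These 3 neighbours share some sequence, as given above, while CXCL8 shares no 50-base window with them. CXCL8 was at 323 CPM in chosen and 6.47 CPM in low knockdown cells (49.9-fold; log2 5.64, 5.47 to 5.81) and at 216 CPM in chosen and 6.94 CPM in low control cells (31.2-fold; log2 4.96, 4.81 to 5.11). The 4 chemokine transcripts thus stood together in the same cells of both libraries, with a larger ratio in the knockdown library for each gene. The difference between the libraries in these ratios was not tested.

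**Figure D2:**
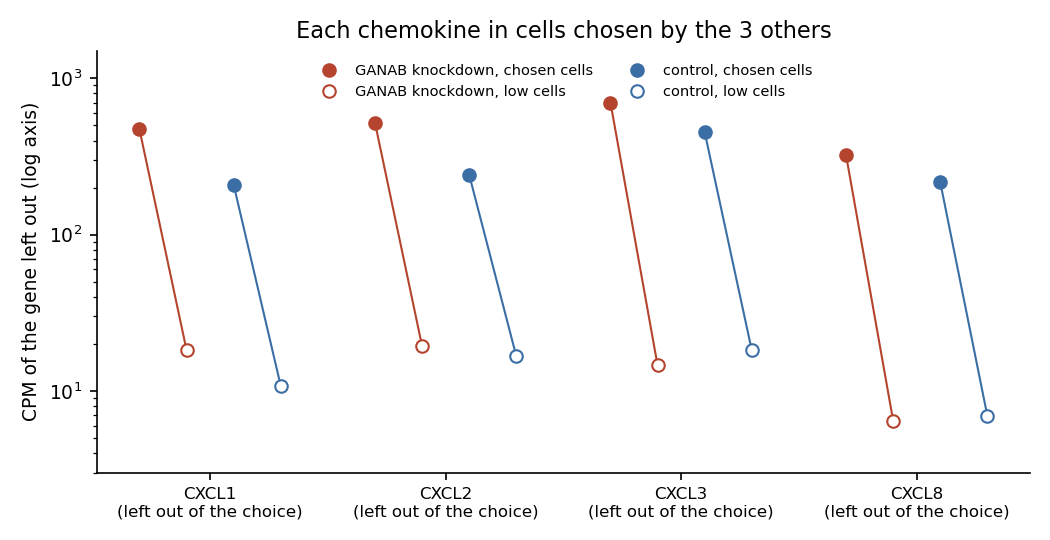
CPM (y axis, log scale) of each chemokine in cells chosen by the other 3 genes (filled points) and in cells with under 2 UMIs of the other 3 (open points), for the knockdown library (red, left) and the control library (blue, right). Each line falls by 14.5-fold or more from chosen to low cells.

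Of the other genes within 500 kb of the cluster, CXCL6, which encodes another ELR-positive neutrophil chemokine, stood at 9.56 CPM in CXCL-high and 1.80 CPM in low knockdown cells, and at 10.3 CPM in CXCL-high and 2.01 CPM in low control cells. It reached the minimum of 10 CPM in the control library, where the ratio was 5.16-fold (log2 2.37, 1.91 to 2.79), and did so in CXCL-high cells alone; the knockdown library had a ratio of 5.30-fold just under the minimum. EREG, which encodes the EGFR ligand epiregulin, lies at chr4:74365143-74388751 and was higher in both libraries, at 88.0 CPM in CXCL-high and 17.9 CPM in low knockdown cells and at 132 CPM in CXCL-high and 29.1 CPM in low control cells. MTHFD2L, a mitochondrial folate enzyme that lies between CXCL2 and EREG, was not called, at 37.8 and 25.3 CPM in CXCL-high and low knockdown cells and 32.1 and 28.1 CPM in CXCL-high and low control cells. CXCL5 had 1 UMI in CXCL-high and 2 UMIs in low knockdown cells and 0 in both groups of control cells, and the platelet chemokines PF4 and PPBP had 0 in every group. Thus 7 of the 23 annotated genes of the window reached 10 CPM: the 4 genes that chose the cells, and CXCL6, EREG and MTHFD2L. CXCR1 and CXCR2, the receptors of these chemokines, had 0 UMIs in all CXCL-high cells, where 3 counts would be 0.160 CPM in the knockdown and 0.553 CPM in the control library.

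CXCL-high cells were G1 by their scored phase in 61.7% of knockdown cells (56.4 to 66.9), against 77.5% of low knockdown cells (74.95 to 79.9). S phase was called in 26.7% of CXCL-high knockdown cells (22.1 to 31.7), against 13.0% of low knockdown cells (11.1 to 15.1). The 1198 knockdown cells that were neither CXCL-high nor low were close to the CXCL-high cells, with 60.6% in G1 and 24.9% in S phase. These phases thus set the low cells apart and were not particular to CXCL-high knockdown cells. In the control library the phase that differed was G2 or M, with 6.67% of CXCL-high cells (2.92 to 12.7) against 16.3% of low cells (14.8 to 17.8), while S phase was at 36.7% and 33.2%. The 1924 control cells in neither group had 20.8% in G2 or M and 41.8% in S phase. CXCL-high cells occurred in every phase: they made up 11.7% of G1, 17.1% of S and 12.5% of G2 or M knockdown cells, and 3.46%, 2.70% and 1.01% of those control cells. CXCL-high cells had a median of 44737 UMIs and low cells 33874 UMIs in the knockdown library, and 41628 and 38912 UMIs in the control library; part of this gap follows from the limit of 2 UMIs, which deeper cells meet less easily. Cells in neither group had higher medians, of 48625.5 UMIs in the knockdown and 51919.5 UMIs in the control library. GANAB stood at 38.1 CPM (35.3 to 40.9) in CXCL-high and 45.1 CPM (43.1 to 47.1) in low knockdown cells, and at 127 CPM (117 to 136) in CXCL-high and 128 CPM (126 to 131) in low control cells, so that it was not called in either library.

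Most knockdown cells carry transcripts of TMEM132D-AS1 and FAM133A and few of MAN1A1 and CDH2, a pattern that a minority of control cells shares. By the UMIs of the first pair exceeding those of the second, 98.3% of CXCL-high and 94.8% of low knockdown cells had this pattern, against 13.3% of CXCL-high and 12.7% of low control cells. Among cells with the pattern, CXCL-high cells made up 339 of 2581 knockdown cells (13.1%, 11.9 to 14.5) and 16 of 600 control cells (2.67%, 1.53 to 4.29). Among cells without it they made up 6 of 91 knockdown cells (6.59%, 2.46 to 13.8) and 104 of 3785 control cells (2.75%, 2.25 to 3.32). The share of CXCL-high cells was thus higher in the knockdown library within the cells that carry the pattern, and the intervals of the cells without it overlap.

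Outside the 4 genes, 289 of 7734 measured genes (3.74%) were higher and 843 (10.9%) lower in CXCL-high than in low cells of the knockdown library, and 298 of 7715 (3.86%) were higher and 86 (1.11%) lower in the control library. Centred on the median of all measured genes, the knockdown library had 407 higher and 454 lower. Against all cells outside the CXCL-high group it had 126 higher and 163 lower. In both libraries 155 of 7239 genes (2.14%) were higher and 13 (0.180%) lower. The genes higher in both were 53.6% of those higher in the knockdown library and 52.0% of those higher in the control library. No gene higher in the knockdown library was lower in the control library, while 13 genes higher in the control library were lower in the knockdown library. For some of these 13 the minimum of 10 CPM fixed the direction of a call, as given with them below. The median log2 ratio over all measured genes was -0.13 in the knockdown and -0.02 in the control library.

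**Figure D3:**
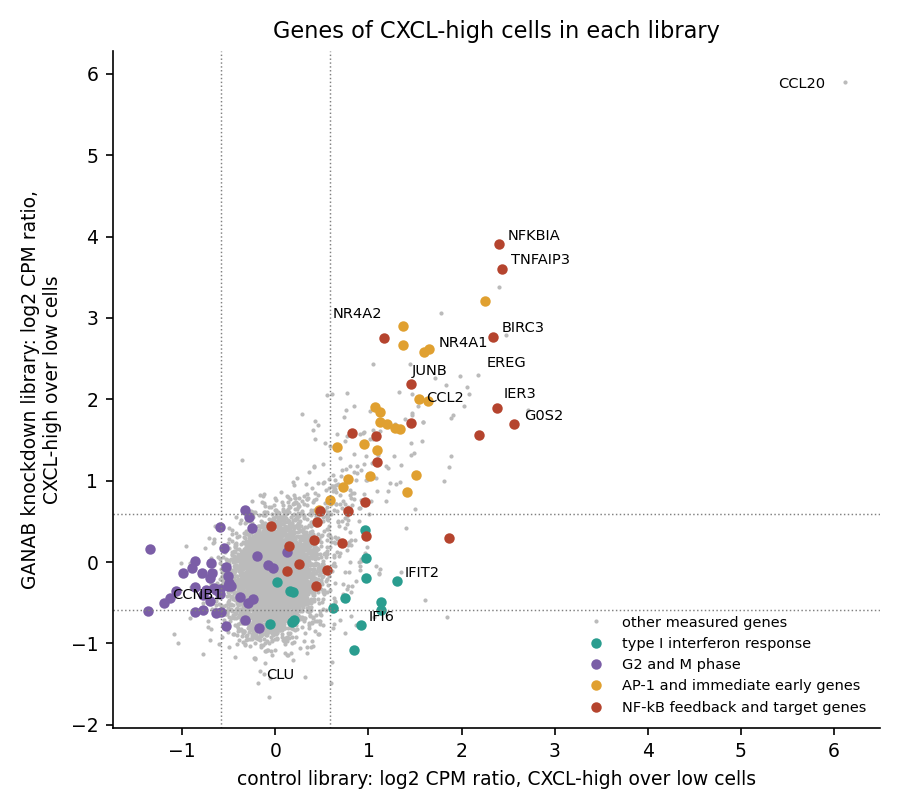
Log2 CPM ratio of CXCL-high over low cells in the knockdown library (y axis) and the control library (x axis), 1 point per gene with at least 10 CPM in both comparisons, without the 4 chemokine genes; colours mark 4 gene lists and dotted lines a ratio of 1.5 either way. NF-kB and AP-1 genes lie to the upper right, G2 and M phase genes to the left, and interferon genes mostly to the lower right, with ISG15 and IFI44 above 0 in both libraries.

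Ranked by the mean ratio of both libraries, among genes with at least 50 CPM in the higher group of each, the first 3 were inhibitors and targets of NF-kB. NFKBIA, which encodes the inhibitor IkB-alpha that holds NF-kB in the cytoplasm, stood at 1661 CPM in CXCL-high and 111 CPM in low knockdown cells (15.0-fold; log2 3.90, 3.86 to 3.95). In the control library it stood at 1325 CPM in CXCL-high and 250.1 CPM in low cells (5.30-fold; log2 2.41, 2.37 to 2.44). After thinning to 15000 UMIs the median cell held 21 UMIs of NFKBIA in CXCL-high and 0 in low knockdown cells, and 18 in CXCL-high and 1 in low control cells. TNFAIP3, the ubiquitin-editing enzyme A20 that shuts off signalling to NF-kB, was at 76.9 and 6.31 CPM in CXCL-high and low knockdown cells (12.2-fold) and at 73.4 and 13.6 CPM in those of the control library (5.42-fold). In the knockdown library TNFAIP3 reached 10 CPM in CXCL-high cells alone and could only be called higher. BIRC3, the ubiquitin ligase cIAP2 of TNF receptor complexes, was at 478 and 70.1 CPM in CXCL-high and low knockdown cells (6.82-fold) and at 485 and 96.1 CPM in those of the control library (5.05-fold). For all 3 genes the low knockdown cells lay below the low control cells. Between the CXCL-high cells of the knockdown and control libraries the log2 ratios were 0.33 for NFKBIA, 0.07 for TNFAIP3 and -0.02 for BIRC3, and none of them was called.

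In the list of NF-kB feedback and target genes, 16 of 27 measured members were higher in CXCL-high knockdown cells (median log2 0.74) and 18 of 28 in CXCL-high control cells (median 0.96), and 0 were lower in either. Among all measured genes 3.74% were higher and 10.9% lower in the knockdown library, and 3.86% and 1.11% in the control library. The 14 higher in both were NFKBIA, NFKBIE, NFKBIZ, TNFAIP3, BIRC3, NFKB2, RELB, REL, BCL3, IER3, IRF1, CD83, G0S2 and BCL2A1. Some list members reached 10 CPM in CXCL-high cells alone and could only be called higher. Among them were TNFAIP3, BCL2A1 and ZC3H12A in the knockdown and TRAF1 in the control library. IRF1, a transcription factor of the interferon and NF-kB responses, was at 228 and 50.2 CPM in CXCL-high and low knockdown cells and 144 and 52.7 CPM in those of the control library. BCL2A1, an inhibitor of apoptosis, was at 58.6 and 8.72 CPM in CXCL-high and low knockdown cells and 84.8 and 37.9 CPM in those of the control library. SOD2, the mitochondrial superoxide dismutase, was higher in the control library, at 216 CPM in CXCL-high and 59.5 CPM in low cells, while the knockdown library had 92.8 and 75.4 CPM, below the ratio of 1.5. NFKB1, the p105 and p50 subunit, was not called, with log2 ratios of 0.49 and 0.45 in the knockdown and control libraries. With a minimum of 50 CPM, 7 list members were higher in the knockdown and 11 in the control library.

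The receptors and kinases upstream of NF-kB were mostly not called. Of the measured members of the list of IL-1, TNF and Toll-like receptor signalling, 5 of 20 were higher and 3 lower in CXCL-high knockdown cells (median log2 -0.19), and 2 of 18 were higher and 0 lower in CXCL-high control cells (median 0.11). Over all measured genes 3.74% were higher and 10.9% lower in the knockdown library, and 3.86% and 1.11% in the control library. The 2 higher in both were IRAK2, a kinase of the IL-1 receptor pathway, at 11.3 and 4.83 CPM in CXCL-high and low knockdown cells and 16.0 and 7.84 CPM in those of the control library, and RIPK2, the kinase of NOD receptors, at 32.4 and 16.7 CPM and at 34.3 and 21.8 CPM. IRAK2 reached 10 CPM in CXCL-high cells alone. TNFRSF1A, the main TNF receptor, was not called, at 67.0 and 61.3 CPM in CXCL-high and low knockdown cells and 54.2 and 52.5 CPM in those of the control library. MAP3K7, IKBKB and IL6ST were lower in CXCL-high knockdown cells, with log2 ratios of -0.73, -0.59 and -0.67, and had 0.02, 0.13 and 0.23 in the control library.

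AP-1 and immediate early genes, which are transcribed within minutes of many stimuli, including the dissociation of tissue into single cells, were higher almost throughout. All 23 measured members were higher in CXCL-high knockdown cells (median log2 1.64), and 21 of 23 in CXCL-high control cells (median 1.20), with 0 lower and 21 higher in both. Of all measured genes 3.74% were higher and 10.9% lower in the knockdown library, and 3.86% and 1.11% in the control library. NR4A3 reached 10 CPM in CXCL-high cells alone in both libraries and could only be called higher. JUNB, a Jun family subunit of AP-1, stood at 629 CPM in CXCL-high and 105 CPM in low knockdown cells (5.96-fold), and at 408 CPM in CXCL-high and 135 CPM in low control cells (3.03-fold). DUSP1, a phosphatase that switches off MAP kinases, stood at 2052 and 513 CPM in CXCL-high and low knockdown cells and at 1040 and 358 CPM in those of the control library. The nuclear receptor NR4A1 was at 324 and 52.8 CPM in CXCL-high and low knockdown cells (6.15-fold) and at 90.1 and 28.8 CPM in those of the control library (3.13-fold). Its relative NR4A2 was at 156 and 20.9 CPM in CXCL-high and low knockdown cells and at 160.4 and 61.9 CPM in those of the control library, and among control cells with the TMEM132D-AS1 and FAM133A pattern, of which 16 were CXCL-high, its log2 ratio was -0.47. Among these control cells 13 of the AP-1 and immediate early genes were higher, and 13 among the 6 CXCL-high knockdown cells without the pattern. BHLHE40, a stress-induced repressor outside the lists, was at 96.3 and 11.5 CPM in CXCL-high and low knockdown cells (8.35-fold) and 89.6 and 26.1 CPM in those of the control library (3.43-fold). The part that dissociation has in these values was not tested.

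Feedback regulators of MAP kinase signalling and ligands of EGFR were higher in 8 of 15 measured members in CXCL-high knockdown cells, where SPRED1 was lower, and in 8 of 16 in CXCL-high control cells, the same 8 genes: DUSP5, SPRY2, SPRY4, PHLDA1, PHLDA2, EREG, HBEGF and IER3. Beside these stand 3.74% of all measured genes higher and 10.9% lower in the knockdown library, and 3.86% and 1.11% in the control library. HBEGF, an EGFR ligand shed from the cell surface, stood at 62.6 and 14.9 CPM in CXCL-high and low knockdown cells (4.19-fold) and at 61.0 and 14.4 CPM in those of the control library (4.23-fold), nearly the same in both libraries. IER3, an early response gene that acts on survival and MAP kinase signalling, was at 124 and 33.4 CPM in CXCL-high and low knockdown cells (3.70-fold) and at 427 and 82.0 CPM in those of the control library (5.21-fold). PLK2, a stress-induced polo-like kinase named by rank and outside the lists, was at 90.8 and 20.5 CPM and at 84.6 and 20.4 CPM. CCND1, the cyclin of G1 that MAP kinase signalling induces, was not called, at 454 and 483 CPM in CXCL-high and low knockdown cells and 696 and 764 CPM in those of the control library. Of the genes for AU-rich mRNA decay, ZFP36, which encodes tristetraprolin and destabilises chemokine mRNAs, was at 211 and 39.0 CPM in CXCL-high and low knockdown cells (5.41-fold) and at 101.4 and 37.2 CPM in those of the control library (2.73-fold). ZFP36L1, its relative, was also higher in both, and the other decay genes that were measured, except ZC3H12A in the knockdown library, were not called.

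Chemokines and cytokines outside the ELR-positive class were less uniform. In this list 4 of 9 measured members were higher in CXCL-high knockdown cells and 7 of 10 in CXCL-high control cells, with 0 lower in either, and CCL2, CCL20, LIF and CSF1 were higher in both. Over all measured genes 3.74% were higher in the knockdown and 3.86% in the control library. CCL20 and LIF in both libraries, and CCL7 and IL11 in the control library, reached 10 CPM in CXCL-high cells alone and could only be called higher. CCL2, which draws monocytes, stood at 80.5 and 21.3 CPM in CXCL-high and low knockdown cells (3.78-fold) and at 267 and 92.4 CPM in those of the control library (2.89-fold). CSF1, the growth factor of macrophages, was at 34.8 and 15.1 CPM and at 32.6 and 17.0 CPM. CCL20 rested on few cells: it was detected in 3.19% of CXCL-high knockdown and 6.67% of CXCL-high control cells, with 41.4% and 71.0% of its UMIs in 1 cell. IL6 was below the minimum, with 1 UMI in all CXCL-high knockdown cells and 1 in all CXCL-high control cells. Macrophage migration inhibitory factor, MIF, was not called, at 473 and 375 CPM in CXCL-high and low knockdown cells and 419 and 480.4 CPM in those of the control library.

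**Figure D4:**
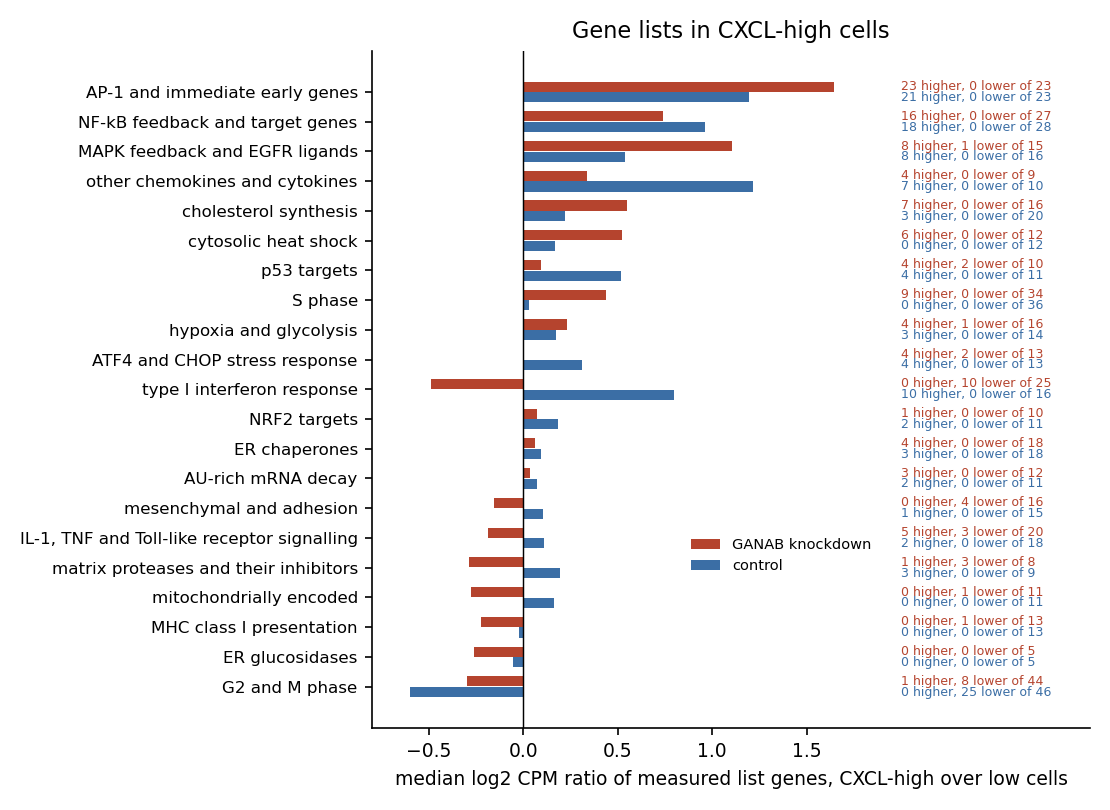
Median log2 CPM ratio of CXCL-high over low cells (x axis) over the measured genes of each list, for the knockdown library (red, above) and the control library (blue, below), with the number of genes higher and lower at right. AP-1 and immediate early genes have the highest medians together, 1.64 and 1.20, and the interferon list lies on opposite sides of 0.

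Levels were also read along the share of the 4 genes, below and above the threshold, in bins with at least 20 cells. NFKBIA stood at 111, 462, 915, 1433 and 1918 CPM in knockdown cells with under 2 UMIs, up to 0.05%, up to 0.1%, up to 0.2% and up to 0.5%, and at 250.1, 514, 1059, 1260 and 1532 CPM in control cells. It was thus already higher in cells outside the CXCL-high group than in low cells, and higher still with each bin. BIRC3 followed the same order, at 70.1, 189, 306, 442 and 540.1 CPM in knockdown cells and 96.1, 195, 316, 430 and 653 CPM in control cells. NR4A1 was less even, at 52.8, 160, 293, 302 and 368 CPM in knockdown cells and 28.8, 47.1, 89.8, 96.5 and 54.9 CPM in control cells, where the last bin holds 23 cells. GANAB was at 45.1, 42.8, 37.8, 38.2 and 38.1 CPM in knockdown cells. Its interval was 43.1 to 47.1 CPM with under 2 UMIs and 34.7 to 41.1 CPM from 0.05% to 0.1%. In control cells it lay between 118 and 130.2 CPM with no steady order.

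**Figure D5:**
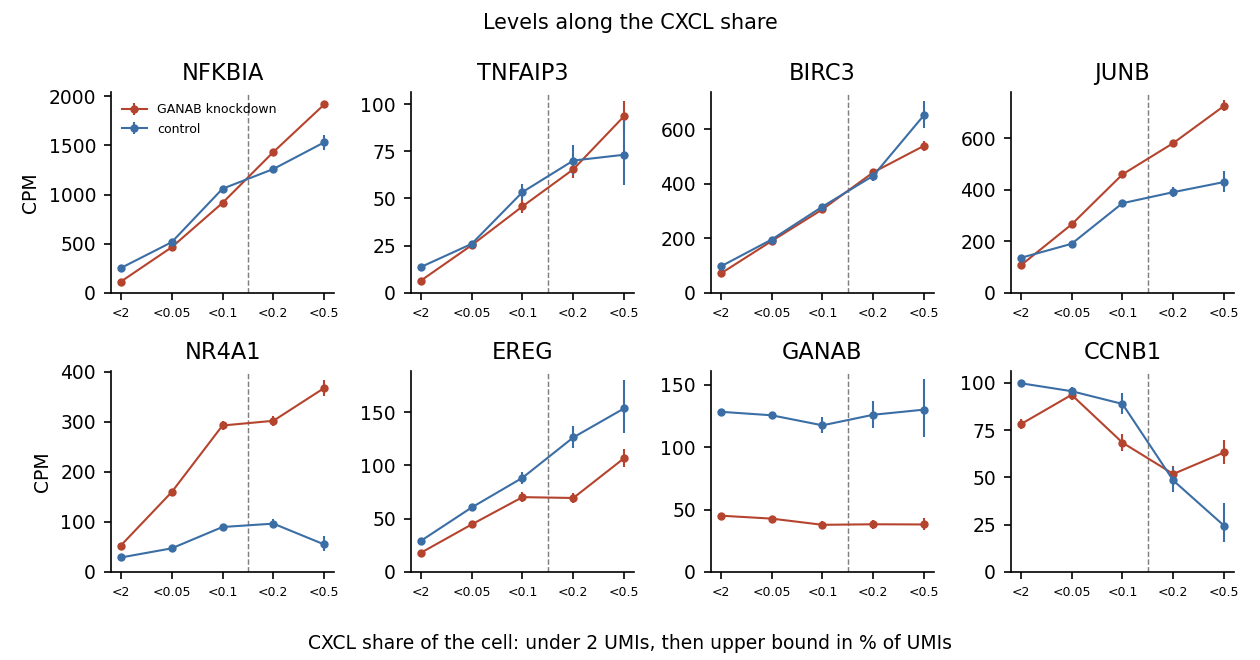
CPM (y axis) of 8 genes in bins of the CXCL share (x axis, from under 2 UMIs to under 0.5% of UMIs) in the knockdown library (red) and the control library (blue); error bars are exact 95% Poisson intervals and the dashed line is the 0.1% threshold. NFKBIA, TNFAIP3, BIRC3 and JUNB climb on both sides of the threshold. EREG climbs as well, apart from 70.2 and 69.4 CPM just below and above the threshold in knockdown cells. GANAB goes from 45.1 to 38.1 CPM in knockdown cells and has no steady order in control cells, and CCNB1 is lowest in the CXCL-high control cells.

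Type I interferon response genes had lower calls in the knockdown and higher calls in the control library, and 3 members, IFI6, IFI27 and IFIT1, had both. In the knockdown library 10 of 25 measured members were lower and 0 higher in CXCL-high cells (median log2 -0.49), and in the control library 10 of 16 were higher and 0 lower (median 0.80). Over all measured genes 3.74% were higher and 10.9% lower in the knockdown library, and 3.86% and 1.11% in the control library. Among the control calls IFIT1, IFIT2, IFIT3 and IFI27 reached 10 CPM in CXCL-high cells alone and could only be called higher. IFIT1 was at 15.1 and 6.90 CPM in CXCL-high and low control cells. IFI6, an interferon-induced mitochondrial protein, stood at 247 CPM in CXCL-high and 421 CPM in low knockdown cells (log2 -0.77, -0.82 to -0.73), and at 102 CPM in CXCL-high and 53.8 CPM in low control cells (log2 0.92, 0.79 to 1.04). Knockdown cells in neither group had IFI6 at 271 CPM up to 0.05% and 243 CPM up to 0.1%. Its lower level thus set the low cells apart and was not particular to CXCL-high knockdown cells. ISG15, a ubiquitin-like modifier, was at 857 and 654 CPM in CXCL-high and low knockdown cells, below the ratio of 1.5, and at 328 and 169 CPM in those of the control library (1.94-fold). The knockdown count was 4 in cells of 30000 to 60000 UMIs and 3 against all cells outside the CXCL-high group. Some of the control values rested on few cells, while IFI6 was detected in 48.3% and ISG15 in 87.5% of CXCL-high control cells. IFIT2, which binds foreign RNA, had 68.4% of its UMIs in 1 CXCL-high control cell and was detected in 10.0% of CXCL-high and 10.4% of low control cells. In the control library, without the cell with most of its UMIs for each gene, 4 members were higher, with a minimum of 30000 UMIs per cell 1, and with a threshold of 0.05% 0.

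Genes of the cell cycle differed with the phases given above. Of the S phase genes, 9 of 34 were higher in CXCL-high knockdown cells (median log2 0.44), among them CDC6, which loads the replicative helicase, at 17.8 and 10.1 CPM, and 0 of 36 in CXCL-high control cells (median 0.03). Of the G2 and M phase genes, 8 of 44 were lower and HMGB2 was higher in CXCL-high knockdown cells (median -0.30), and 25 of 46 were lower in CXCL-high control cells (median -0.60). Over all measured genes 3.74% were higher and 10.9% lower in the knockdown library (median -0.13). In the control library these shares were 3.86% and 1.11% (median -0.02). CENPF, a kinetochore protein and the gene that the naming rule gave as lower in both, was at 63.4 and 98.1 CPM in CXCL-high and low knockdown cells (log2 -0.63) and at 88.5 and 138 CPM in those of the control library (log2 -0.64). In cells scored as G1 its log2 ratio was -0.083 in the knockdown and 0.078 in the control library. CCNB1, the cyclin of mitotic entry, was at 43.5 and 99.8 CPM in CXCL-high and low control cells (log2 -1.20) and at 55.0 and 78.2 CPM in those of the knockdown library (log2 -0.51), where it was not called.

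Several stress and metabolic lists had members that were higher in both libraries. Their counts stand against 3.74% of all measured genes higher and 10.9% lower in the knockdown library, and 3.86% and 1.11% in the control library, so that 1 lower member of a short list in the knockdown library is near the share over all genes. HSPA5, the ER chaperone BiP, was at 679 and 310 CPM in CXCL-high and low knockdown cells and at 1081 and 659 CPM in those of the control library, and with HERPUD1 and XBP1 it made up the 3 ER chaperone list members higher in both of 18 measured. The ER glucosidase list, to which GANAB belongs, had 0 of 5 members called in either library. PPP1R15A, which reverses the arrest of translation, was at 491 and 172 CPM in CXCL-high and low knockdown cells and 401 and 198 CPM in those of the control library. CEBPB, a transcription factor of acute phase and stress genes, was at 293 and 118 CPM and at 367 and 99.4 CPM. Of the cholesterol synthesis genes 7 of 16 were higher in CXCL-high knockdown cells and 3 of 20 in CXCL-high control cells, with HMGCS1 and INSIG1 among those higher in both. HMGCS1, an early enzyme of cholesterol synthesis, was at 144 and 39.6 CPM in CXCL-high and low knockdown cells and 447 and 264 CPM in those of the control library. Cytosolic heat shock genes were higher in 6 of 12 members in CXCL-high knockdown cells, led by BAG3 at 161 and 56.4 CPM, and in 0 of 12 in CXCL-high control cells. Hypoxia and glycolysis genes were higher in 4 and lower in 1 of 16 in CXCL-high knockdown cells and higher in 3 of 14 in CXCL-high control cells, with ADM and ANGPTL4 higher in both. The p53 targets were higher in 4 and lower in 2 of 10 and higher in 4 of 11; CDKN1A, which encodes the cell cycle inhibitor p21, was at 48.3 and 15.9 CPM in CXCL-high and low knockdown cells and at 57.5 and 26.4 CPM in those of the control library. ATF4 and CHOP stress genes were higher in 4 and lower in 2 of 13 in the knockdown library and higher in 4 of 13 in the control library, and NRF2 targets higher in 1 of 10 and in 2 of 11, with HMOX1 in both. Mesenchymal and adhesion genes were lower in 4 of 16 in CXCL-high knockdown cells and higher in 1 of 15 in CXCL-high control cells; FN1, which encodes fibronectin, was at 5.56 and 22.1 CPM in CXCL-high and low knockdown cells. Matrix proteases and their inhibitors were higher in 1 and lower in 3 of 8 in the knockdown library and higher in 3 of 9 in the control library. Of 11 mitochondrially encoded genes, MT-ND4L was lower in CXCL-high knockdown cells and 0 were called in control cells. MHC class I genes had 1 of 13 lower in CXCL-high knockdown cells, ERAP1, and 0 called in control cells.

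Markers of other cell types were looked for, since neutrophils and macrophages also make these chemokines. The lists hold human genes, counted on GRCh38, while cells of the host would carry mouse transcripts. Low values of these markers therefore cannot show that host cells were absent. Of the 12 neutrophil markers, G0S2 alone reached 10 CPM, while S100A8, S100A9, CSF3R and FCGR3B did not. G0S2 encodes an inhibitor of lipid breakdown that tumour cells also express; it was at 62.1 and 19.1 CPM in CXCL-high and low knockdown cells and at 549.7 and 93.3 CPM in those of the control library. It was detected in 11.0% of CXCL-high knockdown cells, with 44.1% of its UMIs in 1 cell, and in 45.8% of CXCL-high control cells. Its direction did not hold throughout: in cells of 30000 to 60000 UMIs its log2 ratio in the control library was -0.058, and against all cells outside the CXCL-high group it was -0.11 in the knockdown library. Of the T and NK cell markers 11 of 12 had 0 UMIs in CXCL-high knockdown cells and the list summed to 0.0534 CPM there and 0.0228 CPM in low knockdown cells, and to 0 CPM in CXCL-high and 0.0896 CPM in low control cells. The macrophage list summed to 27.7 and 22.1 CPM in CXCL-high and low knockdown cells and to 32.3 and 24.9 CPM in those of the control library. The fibroblast and smooth muscle list summed to 24.1 and 11.8 CPM and to 58.6 and 17.5 CPM; COL1A1 was higher in both libraries and COL1A2 and COL3A1 in the control library. These collagens were detected in 2.03% to 6.09% of CXCL-high knockdown and 5% to 5.83% of CXCL-high control cells, with 35.6% to 67.6% of the UMIs of each gene in 1 cell. Of the endothelial markers 2, of the urothelial markers 1 and of the erythroid markers 0 reached 10 CPM, and 0 were called. The part of these cells in the other values was not tested beyond leaving out the highest cell of each gene.

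The CXCL-high cells of the 2 libraries were also set against each other, beside the low cells, which share the same libraries. In CXCL-high cells 464 of 7777 measured genes (5.97%) were higher and 1203 (15.5%) lower in the knockdown library than in the control library, around a median log2 ratio of -0.16. Centred on that median, 764 were higher and 708 lower. Among low cells the knockdown library had 944 of 8017 genes (11.8%) higher and 941 (11.7%) lower, around a median log2 ratio of -0.01. The genes with the widest differences in CXCL-high cells had the same direction in low cells. CCL5, a T cell chemokine, was at 287 CPM in knockdown and 0.922 CPM in control CXCL-high cells, and at 328 and 2.68 CPM in knockdown and control low cells. TMEM132D-AS1 was at 147 and 10.7 CPM in knockdown and control CXCL-high cells and 133 and 7.96 CPM in low cells. MAN1A1, a mannosidase of the Golgi, was at 1.34 and 60.1 CPM in knockdown and control CXCL-high cells and at 1.57 and 72.6 CPM in low cells. BDKRB1, the bradykinin receptor B1, an inducible gene, was at 21.7 and 179 CPM in knockdown and control CXCL-high cells and 2.07 and 33.95 CPM in low cells, and was thus higher in CXCL-high than in low cells of both libraries. TFPI2, a protease inhibitor, had the same order at 10.3 and 78.3 CPM and at 1.48 and 14.1 CPM. It was detected in 19.2% of CXCL-high and 17.0% of low control cells, with 28.9% of its CXCL-high control UMIs in 1 cell. In the knockdown library BDKRB1 and TFPI2 reached 10 CPM in CXCL-high cells alone and could only be called higher. GANAB gave log2 ratios of -1.74 in CXCL-high and -1.51 in low cells.

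Of the gene lists, interferon response genes were higher in the knockdown library in 14 of 22 measured members in CXCL-high cells (median log2 1.26) and in 23 of 25 in low cells (median 2.41), with 0 lower in either. NF-kB feedback and target genes were higher in 2 and lower in 10 of 29 in CXCL-high cells (median -0.24), and higher in 0 and lower in 8 of 25 in low cells (median -0.32). Over all measured genes 5.97% were higher and 15.5% lower in CXCL-high cells (median -0.16). In low cells these shares were 11.8% and 11.7% (median -0.01). AP-1 and immediate early genes were higher in 9 and lower in 2 of 23 in CXCL-high cells (median 0.36), and higher in 4 and lower in 7 of 22 in low cells (median -0.21). Cholesterol synthesis genes were lower in 15 of 20 in CXCL-high cells (median -0.93) and in 18 of 20 in low cells (median -1.24). The difference between CXCL-high and low cells in these contrasts was not tested.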

How the data were processed

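The deposited files give, for every gene in every barcode, the unnormalised count of UMIs, which the authors made with Cell Ranger 3.1.0 on GRCh38, per the submitters' processing notes, for 33538 genes and 6794880 listed barcodes per library. The sources used here do not say whether the reference held a mouse genome. Members and gene lists were chosen with earlier results of these data known.

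Counts were summed over the cells of a group and divided by the total without the 4 chemokine genes, except in the levels of those genes themselves. With 0.5 added to each count, ratios received exact conditional binomial intervals, shares Clopper-Pearson intervals and levels Poisson intervals. Reads of 1 library are not replicates, so no p-value was computed. The ratio method was tested on simulated data. Thinning drew 15000 UMIs per cell with a fixed seed, and phases were scored on the thinned cells.

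The text names GANAB, the 4 chemokine genes, up to 12 genes per direction with the largest mean ratio past the thresholds in both libraries and at least 50 CPM in the higher group, leading members of each list, and 8 genes per direction between the libraries. Other genes were named after their values were seen. There were 23 pathway lists and 9 marker lists, and 556 of 556 symbols were found. SOD2 has 2 identifiers in the files, and ENSG00000112096 was used. GENCODE release 29 positions matched 33456 genes. Alternatives changed the threshold, cell and gene filters, depth, phase, scaling and low cells. Python 3.11.15, numpy 2.4.6, scipy 1.17.1, scanpy 1.11.5, pandas 2.3.3 and matplotlib 3.10.9 were used.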

Additional observations from a re-analysis of the deposited data

Results flagged for a closer look

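In 13 genes the ratio of CXCL-high over low cells was called lower in the knockdown library and higher in the control library. CCDC80, FAM171A1, NHS and ZNF711 reached 10 CPM in low cells alone in the knockdown library and in CXCL-high cells alone in the control library. The minimum thus fixed both of their directions. IFI27, IFIT1, SLFN5 and S100A4 reached 10 CPM in CXCL-high cells alone in the control library and could only be called higher there. The difference between the libraries was not tested, and each value below is the log2 ratio of the knockdown library minus that of the control library.

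Members of the interferon response list made up 3 of them: IFI27 gave -1.93, IFIT1 -1.73 and IFI6 -1.69. SLFN5, an interferon-induced Schlafen gene outside the list, gave -1.74. IFI27 stood at 45.8 CPM in CXCL-high and 96.8 CPM in low knockdown cells, and at 11.2 CPM in CXCL-high and 6.30 CPM in low control cells. The concentration of these transcripts in few CXCL-high control cells, and the levels of IFI6 in knockdown cells of neither group, are given with the interferon results.

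S100A4, a calcium-binding protein of motile cells, gave -2.52, with 26.8 CPM in CXCL-high and 43.0 CPM in low knockdown cells and 21.4 CPM in CXCL-high and 5.996 CPM in low control cells. Its relative S100A6, counted among the UMUC3 markers, gave -1.39, with 715 CPM in CXCL-high and 1214 CPM in low knockdown cells and 657 CPM in CXCL-high and 426 CPM in low control cells. TNC, which encodes the matrix protein tenascin C, gave -2.09, with 12.9 CPM in CXCL-high and 36.4 CPM in low knockdown cells and 41.5 CPM in CXCL-high and 27.4 CPM in low control cells.

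The other 6 genes belong to no list. CCDC80 gave -1.63, FAM171A1 -1.44, KLHL24 -1.41, NHS -1.84, ZNF711 -1.47 and ZNF90 -1.64, and none of these 6 exceeded 50.2 CPM in any group.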

How the results depend on the processing

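In all 72 comparisons under other settings each left-out chemokine kept its direction and call, with log2 ratios between 3.43 and 6.46. Of 468 comparisons for named genes, 448 kept direction and call, 15 lost the call and 5 turned. The shares of CXCL-high cells moved with the threshold, to 22.4% of knockdown and 7.64% of control cells at 0.05% and to 4.64% and 0.593% at 0.2%. The 155 genes higher in both libraries became 87 against all cells outside the CXCL-high group, 86 in cells without the TMEM132D-AS1 and FAM133A pattern, 73 at 50 CPM, 72 at a fold of 2 and 233 with no minimum CPM. The 13 lower in both became 1 at 0.05%, 62 at 0.2%, 25 above 30000 UMIs, 29 in cells of 30000 to 60000 UMIs, 89 in cells with the pattern, 2 without it, 1 at 50 CPM, 57 with no minimum, 0 at a fold of 2, 8 centred on the median and 22 without the highest cell of each gene.

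Counts within 1 library moved as well, and 45 of 72 lay within 1.5 times the reported count. The 843 genes lower in the knockdown library became 508 in cells of 30000 to 60000 UMIs, and the 86 lower in the control library became 7 at 0.05% and 264 at 0.2%.

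For NF-kB genes, a minimum of 50 CPM left 7 higher in the knockdown and 11 in the control library. AP-1 and immediate early genes higher were 13 in knockdown cells without the pattern and 13 in control cells with it. Interferon genes lower in the knockdown library, 10 as reported, were 4 in cells of 30000 to 60000 UMIs, 4 in G1 cells, 4 at a fold of 2, 6 without the pattern, 6 at 50 CPM and 3 against all other cells. Interferon genes higher in the control library, also 10, were 0 at 0.05%, 0 with the pattern, 1 above 30000 UMIs, 2 at 50 CPM, 3 at a fold of 2, 4 without each gene's highest cell and 16 with no minimum. Between the CXCL-high cells of the knockdown and control libraries, 464 genes higher and 1203 lower became 162 and 314 at a fold of 2, 167 and 298 at 50 CPM, 1022 and 1986 with no minimum, and 764 and 708 centred on the median, and 589 were lower without the pattern. The log2 ratio of CENPF turned to 0.078 in control G1 cells and to 1.40 in knockdown cells without the pattern, of which 6 were CXCL-high. That of G0S2 turned to -0.058 in control cells of 30000 to 60000 UMIs and to -0.11 in the knockdown library against all other cells, and that of NR4A2 to -0.47 in control cells with the pattern. The cause of these changes was not tested.

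Centring, leaving out the highest cell of each gene and leaving out shared barcodes were chosen after seeing the data. No paired analysis was possible because the labels give 1 library per genotype and no replicate numbers, and for the same reason no replicate was left out. Depth limits the control library most, since its 120 CXCL-high cells hold 5434709 UMIs.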

Other observations

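Genes outside the lists, chosen after their values were seen, were also higher in CXCL-high cells of both libraries. The ID genes encode inhibitors of helix-loop-helix transcription factors. ID3 stood at 1491 CPM in CXCL-high and 439 CPM in low knockdown cells, and at 967 CPM in CXCL-high and 262 CPM in low control cells. ID1 stood at 833 and 271 CPM in CXCL-high and low knockdown cells and at 310.0 and 150.1 CPM in those of the control library. ID2 stood at 111 and 39.1 CPM in CXCL-high and low knockdown cells and at 41.7 and 20.2 CPM in those of the control library.

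The linker histone HIST1H1D, a gene of S phase chromatin, stood at 35.6 and 12.2 CPM in CXCL-high and low knockdown cells and at 52.5 and 30.8 CPM in those of the control library. GADD45A, a stress-induced regulator of growth arrest, stood at 179 and 79.3 CPM in CXCL-high and low knockdown cells and at 289 and 79.6 CPM in those of the control library. The low cells of both libraries were thus nearly level for GADD45A, while the CXCL-high control cells lay above the CXCL-high knockdown cells.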
